A study of Mus musculus with 6 samples.

Results

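The genes described here are 9 genes of the early nervous system, Sox1, Sox3, Pax6, Zic1, Zic2, Zic5, Pou3f1, Nes and Tubb3, measured while mouse embryonic stem cells (ESCs) formed endoderm. They were taken by gene symbol from tables of 24054 genes, by a rule that uses no measured value but was set with earlier results of these data known, to ask whether RNA of a neural fate was lost along the way. All 9 were in the tables. Of these, 8 were among the 14539 genes that passed the filter on low counts and were tested, and Zic1 did not pass.

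Ribo-depleted RNA was sequenced from 3 FACS-sorted populations of 1 double knock-in (DKI) line, with 2 independent replicates each. All cells carried Foxa2-Venus in the heterozygous state and Sox17-Cherry in the homozygous state, in which fluorescent proteins are fused to 2 endoderm transcription factors (TFs). The d0 population was ESCs kept on gelatine and sorted as Foxa2-Venus-negative and Sox17-Cherry-negative. Wnt3a at 1 ng/ml and Activin A at 10 ng/ml were then given daily. The d3F population was sorted on day 3 as Foxa2-Venus-positive and Sox17-Cherry-negative, and the d5FS population on day 5 as positive for both. The sort thus kept only cells with the endoderm reporters, and the reporter-negative cells of days 3 and 5 were not analysed here.

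Neuroectoderm is the part of the early embryo that gives rise to brain and spinal cord, and it arises from the same pluripotent epiblast as endoderm. Activin and Wnt signalling are known to direct epiblast towards mesoderm and endoderm and to hold back the neural fate. Sox1 and Sox3 are SoxB1 TFs of neural progenitors, Pax6 is a TF of neural tube and eye, and the Zic genes encode zinc finger TFs of the dorsal neural plate. Pou3f1 (Oct6) is a POU TF of epiblast and early neural plate. Nes encodes nestin, an intermediate filament of neural progenitors that other dividing cells also use, and Tubb3 encodes the beta-tubulin of neurons.

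The libraries held between 16457729 and 22768686 expected counts. By the edgeR test used below, all 6 mesendoderm markers were called higher in d3F than in d0, Mesp1 and T narrowly (edgeR adjusted p = 0.0417 and 0.0487). All 7 endoderm markers were called higher in d5FS than in d0, but these include Foxa2 and Sox17, whose reporters defined the sort. Of the same lists, 4 mesendoderm markers were also called higher in d5FS against d0, and 6 endoderm markers in d3F against d0. These counts thus set both sorted populations apart from d0 and do not by themselves tell d3F from d5FS. In d5FS against d3F, Mesp1, Mixl1 and T were called lower, and Cer1, Hnf4a and Sox17 higher (edgeR adjusted p = 0.0242 to 0.0453). The other 3 mesendoderm and 4 endoderm markers were not called there, and Sox17 again defined the sort. In each population replicate 2 had more genes detected than replicate 1 (18354 to 19859 against 16773 to 16977). A list of 12 RNAs without poly(A) tails (Rmrp, Rpph1, Terc and histone genes) took 7.91 to 11.5% of counts in replicates 2 and 4.74 to 6.74% in replicates 1. By TPM the share of this list in d5FS was the lower one in replicate 2 (21.7% against 28.8%). The list leaves out small nucleolar RNAs. The 5 most abundant small RNAs, with Snord15a, Snord15b and Snord22 among them, took 44.9 to 65.2% of TPM in replicates 2 and 35.2 to 44.1% in replicates 1. In each population replicate 2 had the higher share of these. The study's library list gives an mRNA and a total RNA library per population, without tying either to a replicate number. The part of these differences in any result below was not tested.

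In ESCs the 9 genes spanned the range from hardly detected to well expressed. On the TPM scale, which corrects for transcript length, the highest mean levels in d0 were those of Tubb3 (24.73 ± 6.15, SD, n = 2), Nes (11.52 ± 14.97), Pou3f1 (9.52 ± 11.71) and Zic2 (4.10 ± 4.09). Zic5 had 1.31 ± 0.52 TPM. The remaining genes, all TFs, were lower, with 0.54 ± 0.24 TPM for Sox3, 0.29 ± 0.22 for Pax6, 0.17 ± 0.03 for Sox1 and 0.05 ± 0.04 for Zic1. In d5FS the order by mean TPM was led by Nes (5.38 ± 4.17), Zic2 (2.12 ± 1.81) and Sox3 (1.00 ± 0.62), and Tubb3 had 0.53 ± 0.20 TPM. The 5 most abundant small RNAs took 35.2 to 65.2% of TPM, so that TPM levels were compared between genes only, and populations were compared in CPM, counts scaled to a common library size with TMM, a factor that evens out library composition.

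**Figure D1:**
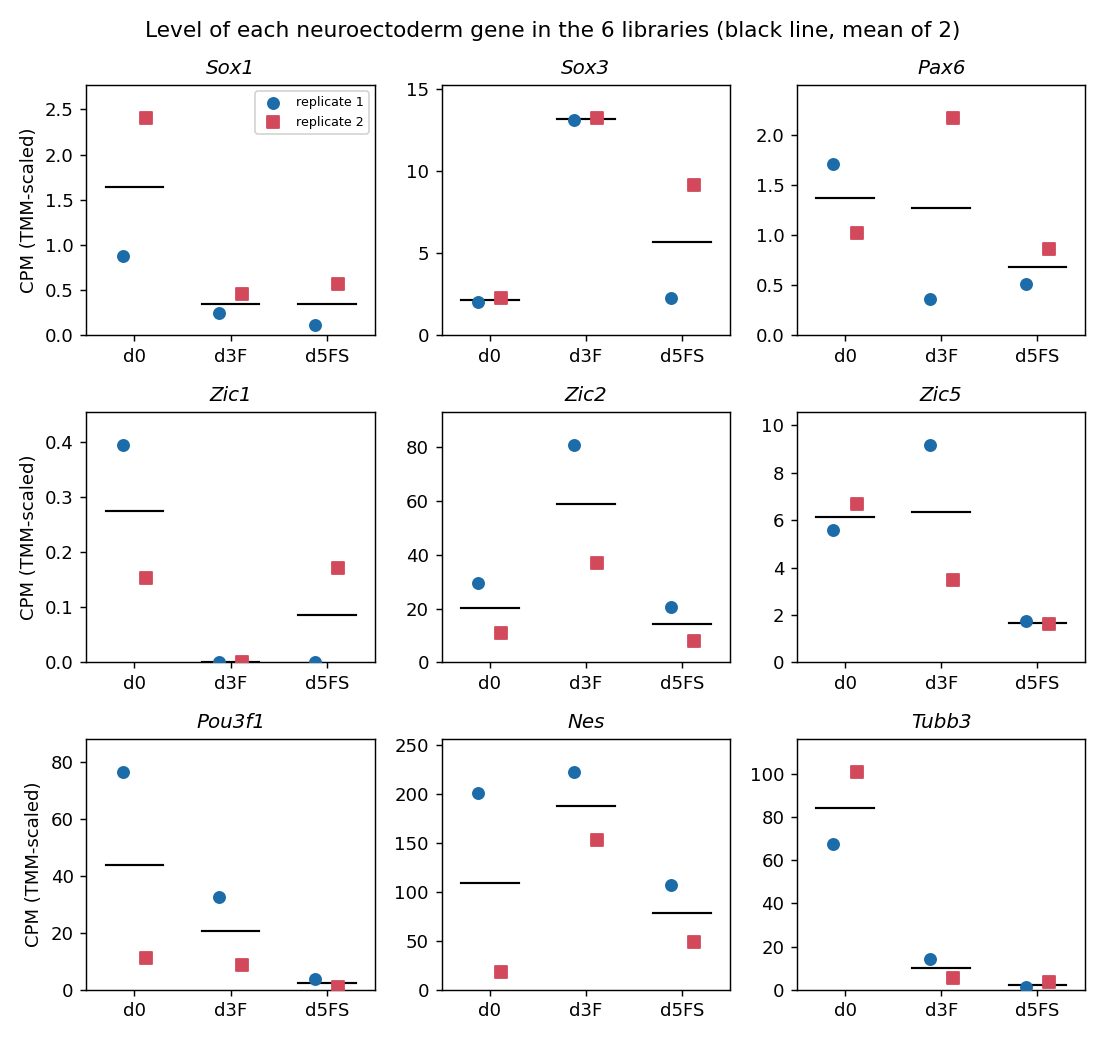
Level of each neuroectoderm gene in CPM (vertical axes, linear, each from 0) in d0, d3F and d5FS cells (horizontal axes). Blue circles are replicate 1, red squares replicate 2, and black lines the mean of 2. Tubb3 lies at 67.5 and 101.0 CPM in d0 and at 1.31 and 3.44 in d5FS, Sox3 is highest in d3F, and Nes and Pou3f1 have a d0 replicate 1 far above d0 replicate 2.

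A gene was called where edgeR's quasi-likelihood test, with BH (Benjamini-Hochberg) adjustment over all tested genes, gave a p under 0.05 and the log2 fold change exceeded 1 in size. By this measure 1 of 8 tested genes was called in d3F against d0 (Tubb3, lower), where 4.7% of all tested genes were called, 2.8% higher and 1.9% lower. In d5FS against d0, 3 of 8 were called, all lower (Tubb3, Pou3f1 and Zic5), where 22.8% of all tested genes were called, 12.4% higher and 10.4% lower. In d5FS against d3F none of 8 was called by edgeR and 4 had an unadjusted p under 0.05 (Zic2, Zic5, Pou3f1 and Tubb3). Of all tested genes, 1.54% were called there, 1.08% higher and 0.461% lower, and 18.1% had an unadjusted p under 0.05. The DESeq2 Wald test called 3 of the 8 there (Zic2, Zic5 and Tubb3, all lower), but it also called 1057 of all genes, where edgeR called 224. The median log2 fold change of the 8 genes was -0.04 in d3F against d0, -1.43 in d5FS against d0 and -1.59 in d5FS against d3F, beside -0.01, 0.02 and 0.01 over all tested genes. The fitted value was below 0 for 4, 7 and 8 of the 8 genes, and the exception in d5FS against d0 was Sox3. These comparisons share samples, and d5FS served in the last 2 of them.

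The counts of called genes were small and moved with single libraries, from 0 to 2 in d3F against d0 (0 without d0 replicate 2 or d3F replicate 2) and from 1 to 3 in d5FS against d0. Of the 3 lower calls in d5FS, only Tubb3 was left without d0 replicate 1, without d5FS replicate 1 and without d5FS replicate 2. In the first of these fits Nes was called higher, and in the second Sox3. Counting all 9 genes, both d5FS samples lay below both d0 samples for 5 and above them for 1. Such separation of 2 against 2 samples was common, being seen in 62.7% of all tested genes. An exact permutation test of single genes with 2 samples against 2 cannot give a two-sided p below 0.333 and was not used.

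**Figure D2:**
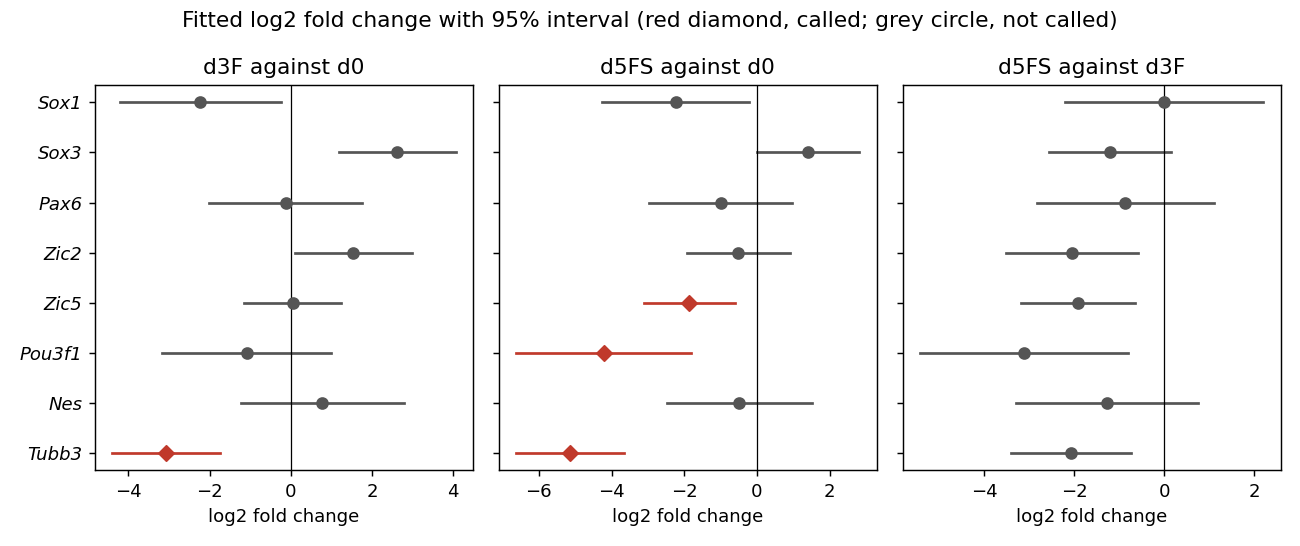
Fitted log2 fold change (horizontal axes) with its 95% interval for the 8 tested neuroectoderm genes in the 3 comparisons. Red diamonds are called genes and grey circles are not called. Tubb3 is called in d3F (-3.07) and d5FS (-5.15) against d0, Pou3f1 (-4.21) and Zic5 (-1.86) in d5FS against d0, and none in d5FS against d3F.

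Tubb3 was the gene with the largest difference. It had 67.5 and 101.0 CPM in d0, 14.4 and 5.61 CPM in d3F, and 1.31 and 3.44 CPM in d5FS. No 2 populations overlapped, and the levels descended from d0 to d3F to d5FS. The fitted log2 fold change was -3.07 (SE 0.58) in d3F against d0 with an adjusted p of 0.0264 by edgeR's quasi-likelihood test with BH adjustment, an 8.40-fold decrease. In d5FS against d0 it was -5.15 (SE 0.65) with an adjusted p of 0.00294, a 35.4-fold decrease by the same edgeR test. Between d3F and d5FS it was -2.08 (SE 0.59) and did not pass, with an edgeR adjusted p of 0.12. The d5FS call held in every fit that left out 1 library, with -5.99 to -4.62. The d3F call was lost without d0 replicate 2 (-2.73, edgeR adjusted p = 0.067) and without d3F replicate 2 (-2.54, edgeR adjusted p = 0.156). In these bulk samples, fewer cells with Tubb3 RNA and less Tubb3 RNA per cell cannot be told apart.

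Tubb3 lies on chromosome 8 (mm10 chr8:123411424-123422015, plus strand, 4 exons). Its neighbour Mc1r had 0.526 and 1.43 CPM in d0, 0 and 0.253 CPM in d3F, and 0.567 and 0.803 in d5FS, and it was not called in any comparison. The 6 other beta-tubulin genes tested (Tubb2a, Tubb2b, Tubb4a, Tubb4b, Tubb5 and Tubb6) were not called either. Tubb5, the most abundant of them, had 2521 and 2409 CPM in d0 and 1746 and 2436 CPM in d5FS (log2 fold change -0.24, SE 0.33). Tubb2b, a beta-tubulin of the nervous system, had 120.0 and 241.1 CPM in d0 and 240.6 and 319.7 CPM in d5FS (0.63, SE 0.43).

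Pou3f1 had the next largest difference, with the largest SE of the 8 genes in that comparison. It had 76.4 and 11.3 CPM in d0, 32.5 and 8.74 CPM in d3F, and 3.63 and 1.09 CPM in d5FS. The d0 and d3F samples overlapped, and both d5FS samples lay below all others. The log2 fold change of d5FS against d0 was -4.21 (SE 1.05), an 18.5-fold decrease that passed with an adjusted p of 0.0247 in edgeR's quasi-likelihood test with BH adjustment. The values against d3F (-3.13, SE 1.01) and of d3F against d0 (-1.09, SE 0.91) did not pass. The call was lost without d0 replicate 1, where the log2 fold change was -2.27 (edgeR adjusted p = 0.0766), without d5FS replicate 1 (-5.33, edgeR adjusted p = 0.0783) and without d5FS replicate 2 (-3.585, edgeR adjusted p = 0.12). The sign of the d3F difference turned without d0 replicate 1, to 0.88. Pou3f1 is a single-exon gene (chr4:124656807-124660655, plus strand) that shares 330 exon bases with Gm2164 on the other strand, and the library kit does not mark strand.

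The other POU genes of its class were near the limit of detection. Pou3f2, Pou3f3 and Pou3f4 had 9 counts or fewer in each of the 6 libraries and were not tested.

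Of the Zic genes, Zic5 was called in 1 comparison and Zic2 in none. Zic2 had 29.6 and 10.9 CPM in d0, 80.9 and 37.1 CPM in d3F, and 20.5 and 7.85 CPM in d5FS. Both d3F samples lay above all others and d0 and d5FS overlapped, but no difference was called in this fit, while both differences of d3F were called without the filter on low counts. The log2 fold change was 1.54 (SE 0.63) in d3F against d0 with an edgeR adjusted p of 0.207, and -2.06 (SE 0.64) in d5FS against d3F with an edgeR adjusted p of 0.146. In d5FS against d0 it was -0.51 (SE 0.62). Replicate 1 was the higher one in each population, by 1.12 to 1.44 on the log2 scale.

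Zic5 had 5.57 and 6.66 CPM in d0, 9.18 and 3.49 CPM in d3F, and 1.76 and 1.61 CPM in d5FS. Only the d5FS samples stood apart, below all others. The decrease in d5FS against d0 was 3.63-fold (log2 fold change -1.86, SE 0.55) and passed narrowly, with an adjusted p of 0.0433 in edgeR's quasi-likelihood test with BH adjustment. Without any one of the d0 and d5FS libraries it no longer passed, with values of -1.99 to -1.72 over all libraries left out and an adjusted p of 0.0539 (without d0 replicate 1), 0.105 (without d0 replicate 2), 0.164 (without d5FS replicate 1) and 0.154 (without d5FS replicate 2) in edgeR. In d3F against d0 the log2 fold change was 0.05 (SE 0.52), and in d5FS against d3F it was -1.91 (SE 0.55) with an edgeR adjusted p of 0.126.

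Zic2 and Zic5 are neighbours on chromosome 14 (chr14:122475435-122479852, plus strand, and chr14:122456795-122465677, minus strand), with starts 9758 bp apart and pointing away from each other. Zic1 (chr9:91358058-91365810, minus strand) had 9 and 3 counts in d0, none in either d3F library, and 0 and 3 counts in d5FS. Taken over 2 libraries each, Zic1 had 12 counts in d0 (44360976 counts over all genes). Set against a limit of 3 counts in d3F (43445658 counts over all genes), this is a 3.9-fold difference. That figure takes the 12 counts of d0 as exact, so it is not a lower bound. Without the filter on low counts, Zic1 was not called in d3F against d0 (edgeR adjusted p = 0.185). Zic4, which overlaps Zic1 on the other strand by 60 exon bases, had 3 counts or fewer in every library.

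Both SoxB1 genes of the set were low in ESCs, and neither was called. Sox3 had 2.02 and 2.25 CPM in d0, 13.1 and 13.2 CPM in d3F, and 2.27 and 9.11 CPM in d5FS. Its d3F samples were the highest and nearly equal, and the d5FS samples spread between the other populations. The log2 fold change of d3F against d0 was 2.62 (SE 0.63), 6.16-fold, and missed the threshold with an adjusted p of 0.0539 in edgeR's quasi-likelihood test with BH adjustment. It ranged from 2.54 to 2.72 in fits without 1 library, and it was called under 6 of 12 alternatives. In d5FS against d0 it was 1.41 (SE 0.61, edgeR adjusted p = 0.127). The latter value rested on d5FS replicate 2, since without that library it was 0.10, and without d5FS replicate 1 it was called at 2.09 (edgeR adjusted p = 0.0423).

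Sox1 had 0.877 and 2.41 CPM in d0, 0.244 and 0.455 CPM in d3F, and 0.114 and 0.573 CPM in d5FS, from 47 counts at most. All d3F and d5FS samples lay below both d0 samples. The log2 fold changes against d0 were -2.23 (SE 0.87) in d3F and -2.24 (SE 0.89) in d5FS and did not pass, with edgeR adjusted p of 0.19 and 0.10. Sox1 and Sox3 are single-exon genes, on chromosome 8 (chr8:12395295-12400126, plus strand) and the X chromosome (chrX:60891366-60893430, minus strand).

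Sox2, the third SoxB1 gene, serves both pluripotency and neural progenitors. It had 149.6 and 294.3 CPM in d0, 38.8 and 12.9 CPM in d3F, and 22.1 and 12.9 CPM in d5FS. It fell in d3F (log2 fold change -3.10, SE 0.59, adjusted p = 0.027) and in d5FS (-3.66, SE 0.61, adjusted p = 0.00613) against d0 by edgeR's quasi-likelihood test. Sox21, a SoxB2 gene, rose in d5FS, from 1.67 and 3.08 CPM in d0 to 10.1 and 14.4 CPM (log2 fold change 2.37, SE 0.51, edgeR adjusted p = 0.0153). The Sox2 call in d3F was lost without d0 replicate 2 or d3F replicate 2 (-4.09 to -2.50 over all libraries left out), and the Sox21 call without either d5FS library (1.98 to 2.88).

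Pax6 had 1.71 and 1.03 CPM in d0, 0.365 and 2.17 CPM in d3F, and 0.511 and 0.860 CPM in d5FS, which corresponds to 9 to 43 counts per library. Its d3F samples spanned all the others. No comparison passed, with log2 fold changes of -0.13 (SE 0.82) in d3F against d0, -0.995 (SE 0.86) in d5FS against d0 and -0.87 (SE 0.86) in d5FS against d3F. The 95% interval of the d5FS value ran from -2.96 to 0.97, so that neither a large loss nor no difference could be shown at this depth. Pax6 (chr2:105668900-105697364, plus strand) has an antisense gene, Pax6os1, with 2 counts or fewer in every library, and a neighbour, Elp4, with 13.96 to 21.03 CPM.

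Nes had 200.7 and 17.9 CPM in d0, 222.7 and 152.7 CPM in d3F, and 107.3 and 48.6 CPM in d5FS. The d0 samples differed 11.2-fold and enclosed all d5FS values, and only d3F and d5FS were apart. No comparison passed, with log2 fold changes of 0.78 (SE 0.87) in d3F against d0, -0.49 (SE 0.87) in d5FS against d0 and -1.27 (SE 0.88) in d5FS against d3F. Which d0 library was kept decided both values against d0. Without d0 replicate 1, Nes was higher in d3F by 3.39 (edgeR adjusted p = 0.0166) and in d5FS by 2.11 (edgeR adjusted p = 0.0323). Without d0 replicate 2 the values were -0.08 and -1.35. Vim, which encodes the filament partner of nestin, had 81.9 and 113.9 CPM in d0 and 414.4 and 891.8 CPM in d3F, a rise of 2.74 on the log2 scale (SE 0.45, edgeR adjusted p = 0.0171), and 236.4 and 156.9 CPM in d5FS. The Vim call was lost without d3F replicate 2 (2.09 to 3.20 over all libraries left out).

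The d0 libraries differed from each other in more than Nes and Pou3f1. Among all tested genes, 0.275% had a larger difference between the d0 replicates than Nes and 0.894% a larger one than Pou3f1. Both genes were lower in replicate 2 in the other populations too. The log2 difference of replicate 2 from replicate 1 was -1.88 in d3F and -1.65 in d5FS for Pou3f1, and -0.544 and -1.14 for Nes. Of the 9 neuroectoderm genes, 5 were higher in d0 replicate 1 and 4 in d0 replicate 2, such as Sox1 (0.877 against 2.41 CPM). Of 7 genes of the post-implantation epiblast, the stage that follows the ESC state, 6 were higher in d0 replicate 1, with 12.5 against 1.18 CPM for Fgf5, 116.2 against 17.5 for Pim2 and 28.6 against 6.30 for Otx2. All 6 pluripotency markers were higher in d0 replicate 2, with 37.7 against 219.0 CPM for Esrrb, 131.6 against 530.8 for Zfp42 and 73.9 against 304.5 for Nanog. Markers of feeder fibroblasts summed to 9.65 CPM in replicate 1 and 14.6 in replicate 2, with Lum at 1 and 0 counts. The part of these differences in the values of Nes and Pou3f1 was not tested. Tubb3, Zic5 and Sox3 differed by 1.5-fold or less between the d0 libraries.

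**Figure D3:**
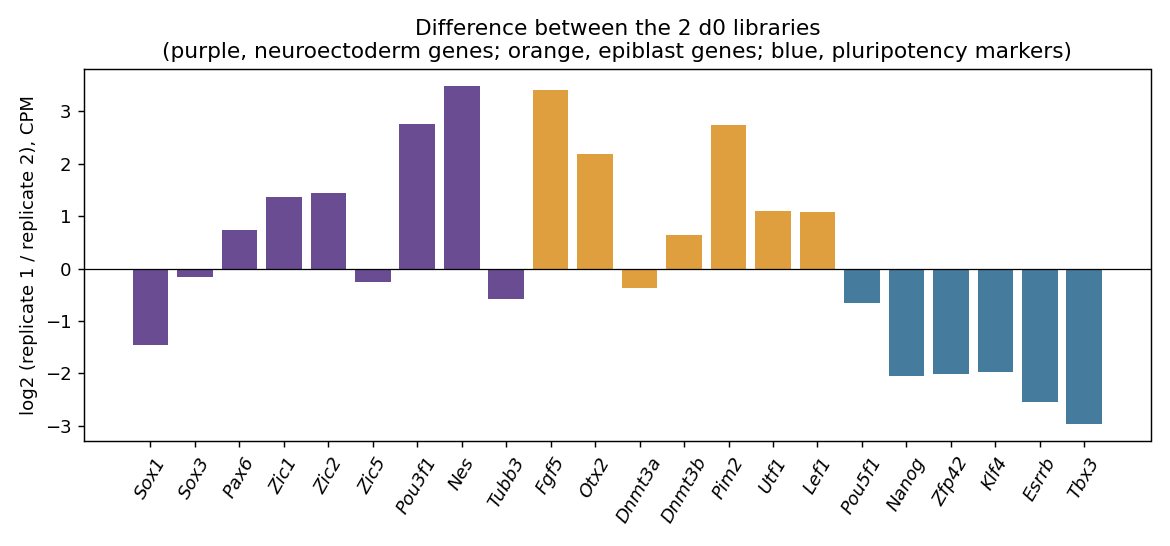
Log2 ratio of CPM in d0 replicate 1 over d0 replicate 2 (vertical axis) for the 9 neuroectoderm genes (purple), 7 epiblast genes (orange) and 6 pluripotency markers (blue). Nes (200.7 against 17.9 CPM) and Pou3f1 (76.4 against 11.3) point the same way as Fgf5, Otx2 and Pim2, and all 6 pluripotency markers point the other way. Of the 9 neuroectoderm genes, 5 are higher in replicate 1 and 4 in replicate 2.

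For the start of the called genes, RefSeq promoter windows (GRCm38.p6, the assembly of mm10) were searched for 4 short motifs on both strands in the 250 bases before the start. Windows were found for 6 of the 9 genes (Pax6, with 2 windows, Sox1, Zic1, Zic5, Nes and Tubb3). Shown are Tubb3 and Zic5, which were called, up to the base before the first annotated start, read on the strand of the gene, with the SOX motif CATTGT in capitals.
Tubb3 chr8:123411303-123411423, plus strand: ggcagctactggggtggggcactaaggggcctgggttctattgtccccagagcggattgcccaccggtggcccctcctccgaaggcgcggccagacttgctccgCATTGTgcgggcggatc
Zic5 chr14:122465678-122465908, minus strand: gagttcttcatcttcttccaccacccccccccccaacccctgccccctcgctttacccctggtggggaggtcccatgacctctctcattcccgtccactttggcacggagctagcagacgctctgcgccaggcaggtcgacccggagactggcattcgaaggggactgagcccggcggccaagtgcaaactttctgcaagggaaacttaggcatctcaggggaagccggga

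The whole Tubb3 window held the SOX core CATTGT 2 times, 1 of them in the stretch shown and 1 past the first annotated start. The Zic5 window held none of the 4 motifs. CATTGT occurs in 10.7% of all 32851 windows. The Zic1 window held the GATA core AGATAA, found in 9.99% of windows, but past the first annotated start of Zic1. The FOXA core TGTTTAC (3.17% of windows) and the POU octamer ATGCAAAT (1.60%) were in none of the windows of Pax6, Zic1, Zic5, Nes and Tubb3. Matches in the Sox1 window are not reported here. These matches are descriptions of letters in short windows.

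Other genes of the neural pathway, taken as lists, were compared in the same fit. The counts of each list stand beside the shares over all tested genes. These were 22.8% called in d5FS against d0 (12.4% higher and 10.4% lower), 4.7% in d3F against d0 and 1.54% in d5FS against d3F. No list was tested against these shares. Of 20 genes of neuronal differentiation 13 were tested, and 7 fell in d5FS against d0, 6 were not called and none rose (median log2 fold change -2.93). Ina, a neuronal filament, had 17.8 and 13.3 CPM in d0 and 0.00 and 0.803 in d5FS (log2 fold change -5.26, SE 1.21). Neurod1, a TF of differentiating neurons, had 9.78 and 2.15 CPM in d0 and 0.340 and 0.172 in d5FS (-4.51, SE 0.98). Elavl3, Gap43, Insm1, Nefl and Stmn2 were the other genes that fell. Map2, the most abundant gene of the list that was not called, had 8.64 and 4.61 CPM in d0 and 2.72 and 1.49 in d5FS (-1.65, SE 0.61). In d3F against d0 3 fell (Gap43, Insm1 and Neurod1). Insm1 lost its call in every fit without 1 library, and Gap43 and Neurod1 in every such fit but that without d0 replicate 2. Over these fits the values were -3.55 to -1.74 for Gap43, -3.10 to -2.36 for Insm1 and -6.71 to -3.58 for Neurod1. In d5FS against d3F Nefl fell (-5.24, SE 0.73), a call lost without d3F replicate 1 or either d5FS library. In d5FS against d0, 2 were called without d5FS replicate 1, 4 without d5FS replicate 2 and 6 or 7 without another library. Ina was lost without d5FS replicate 1, and Neurod1 without d0 replicate 1 or either d5FS library. Neurog2, a proneural gene that starts neuronal differentiation, had 2 counts or fewer in every library.

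TFs of the neural plate went both ways. Of 26 genes 16 were tested, and in d5FS against d0 8 rose and 4 fell (median 1.37). Irx3 rose most, from 0.351 and 0.410 CPM in d0 to 14.9 and 31.8 CPM in d5FS (5.92, SE 0.71), followed by Pax7, which had 0 and 1 counts in d0 and 1.25 and 1.43 CPM in d5FS (5.49, SE 1.09, a value that depends on the prior count). The others that rose were Hesx1, Otx2, Rax, Sox21, Sox4 and Zfp521. Rax had 14 counts in d5FS replicate 1 and 112 in d5FS replicate 2. Its value of 4.168 ranged from 1.998 to 6.175 in fits without 1 library, and that of Zfp521 (1.785) from 1.411 to 2.306. Hesx1 and Otx2 are also known from anterior endoderm, and Irx3 from mesoderm and other tissues. Gbx2 fell from 8.16 and 22.4 CPM to 0.0567 and 0.287 (-6.42, SE 0.83) and En2 from 2.46 and 6.36 to 0.0567 and 0.172 (-5.19, SE 0.88), with Sox2 and Olig2. Sox11, the most abundant that was not called, had 65.6 and 41.8 CPM in d0 and 122.2 and 38.5 in d5FS. In d3F against d0 4 rose (Irx3, Otx2, Zeb2 and Zfp521) and 3 fell (En2, Gbx2 and Sox2). Without 1 library 0 to 5 of these 7 were called, with 0 without d3F replicate 2, 1 without d0 replicate 2 and 3 without d3F replicate 1 or d5FS replicate 2, and Zeb2 was called in none of these fits. In d5FS against d3F Sox21 rose and Olig2 fell, and both calls were lost without d3F replicate 1 or either d5FS library, and that of Sox21 also without d3F replicate 2. The count for d5FS against d0 was 6 without d5FS replicate 1, 7 without d5FS replicate 2 and 10 to 12 without another library. Pax7 was lost without either d5FS library and En2 without d5FS replicate 1. The eye and forebrain TF Six3 had 10 counts or fewer in every library, and Hes5, a Notch target of neural progenitors, had 8 or fewer.

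**Figure D4:**
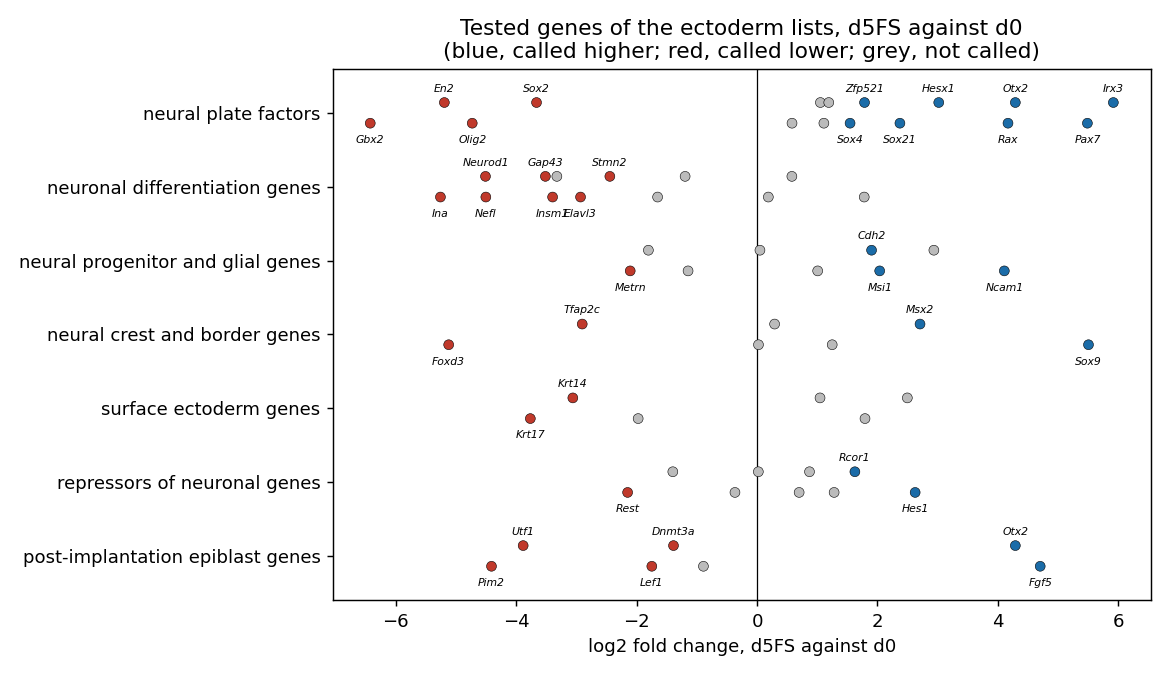
Fitted log2 fold change of d5FS against d0 (horizontal axis) for the tested genes of 7 lists (vertical axis). Each point is a gene, blue where called higher, red where called lower and grey where not called. The 7 called neuronal differentiation genes all lie below 0, while called neural plate factors lie on both sides, 8 above and 4 below.

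Genes of neural progenitors and glia were mixed. Of 9 tested, 3 rose in d5FS against d0 and 1 fell (median 1.01). Ncam1, a cell adhesion molecule, rose from 3.99 and 3.23 CPM in d0 to 77.8 and 46.9 in d5FS (4.11, SE 0.53), and the RNA-binding protein gene Msi1 from 2.46 and 3.08 to 8.96 and 13.8 (2.04, SE 0.42). Cdh2 (N-cadherin), which also marks mesendoderm, was the third. Metrn fell from 22.5 and 26.0 CPM to 5.84 and 5.39 (-2.11, SE 0.32). In d3F against d0 3 rose (Cdh2, Ncam1 and Vim), and in d5FS against d3F Metrn fell, a call lost without any one of the d3F and d5FS libraries. The d3F call of Cdh2 was lost without d3F replicate 2 or d5FS replicate 2. The d5FS count against d0 was 2 without d5FS replicate 2, where Msi1 was lost, and Cdh2 was called in 1 of 6 fits without 1 library.

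Of 7 tested genes of neural crest and border, 2 rose and 2 fell in d5FS against d0 (median 0.29). Sox9, a TF of crest, cartilage and several endoderm organs, rose from 1 count in each d0 library to 2.55 and 2.29 CPM (5.50, SE 0.71, again dependent on the prior count), and Msx2 from 2.06 and 2.05 to 12.6 and 14.3 (2.71, SE 0.62). Foxd3, which also acts in ESCs, fell from 11.2 and 15.0 CPM to 0.624 and 0.115 (-5.12, SE 0.92), and Tfap2c from 33.1 and 55.7 to 6.98 and 4.87 (-2.90, SE 0.39). Ets1 was not called, with 16.9 and 5.13 CPM in d0 and 31.9 and 20.6 in d5FS. Sox9 alone rose in d3F against d0, and none was called by edgeR in d5FS against d3F. Of 6 tested surface ectoderm genes, the keratins Krt17 (-3.77, SE 0.59) and Krt14 (-3.06, SE 0.76) fell in d5FS against d0 and none rose, and Grhl3 had 9.96 and 13.0 CPM in d0 and 18.3 and 29.2 in d5FS. Msx2 and Krt14 were lost without d0 replicate 2 or either d5FS library.

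Among 9 repressors of neuronal genes, all tested, 2 rose and 1 fell in d5FS against d0. Hes1, a Notch target that holds back neuronal differentiation, had 20.4 and 10.97 CPM in d0, 69.3 and 83.8 CPM in d3F, and 80.4 and 113.5 in d5FS. It rose in d3F (2.29, SE 0.38) and d5FS (2.63, SE 0.39), and the d3F call was lost without d0 replicate 2 or d3F replicate 2. Rcor1, a partner of Rest, rose in d5FS from 12.7 and 8.71 CPM to 39.4 and 26.8 (1.63, SE 0.35), a call lost without d0 replicate 2 or d5FS replicate 1. Rest, the repressor that silences neuronal genes outside neurons, went the other way, with 209.9 and 287.1 CPM in d0, 110.4 and 73.9 CPM in d3F, and 63.7 and 48.3 in d5FS. Its value in d5FS against d0 was -2.15 (SE 0.34, edgeR adjusted p = 0.00537), and that in d3F was -1.43 (SE 0.34, edgeR adjusted p = 0.0511). Id3, an inhibitor of bHLH factors, was not called, with 79.1 and 64.3 CPM in d0 and 127.8 and 134.6 in d5FS.

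Of the 7 epiblast genes, Fgf5 and Otx2 rose in d5FS against d0, and Dnmt3a, Lef1, Pim2 and Utf1 fell. Fgf5 had 145.8 and 97.1 CPM in d3F and 198.7 and 160.8 in d5FS. Utf1 had 110.5 and 51.2 CPM in d0, 35.3 and 9.35 CPM in d3F, and 6.64 and 4.30 in d5FS, and Pim2 had 2.55 and 3.73 CPM in d5FS (-4.41, SE 0.95). Of these 6 calls, 3 were left without d5FS replicate 1 and 2 (Fgf5 and Otx2) without d5FS replicate 2. Dnmt3b, a DNA methyltransferase, was not called and had 342.5 to 877.0 CPM over the libraries.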

How the data were processed

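RNA-seq of d0, d3F and d5FS cells was used, with 2 replicates each, and samples were grouped by the time point, sort and replicate number of their labels. The authors depleted ribosomal RNA, made TruSeq libraries, aligned reads to mm10 with STAR and quantified RefSeq genes with RSEM, with versions not given in the sources used here. The authors deposited expected counts (RSEM estimates of fragments per gene, not normalized), TPM values (scaled for effective length and library), FPKM values (used only for their totals) and effective lengths.

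Expected counts were rounded. The function filterByExpr of edgeR 4.0.16 (R 4.3.3) kept 14539 of 24054 genes, which were scaled by TMM (0.877 to 1.08) and tested by the quasi-likelihood method in 1 fit of 6 samples (3 residual degrees of freedom, prior count 0.125). Calls needed a BH-adjusted p under 0.05 over all tested genes and a log2 fold change past 1 in size. P-values cover only the spread between these samples. SE is the log2 fold change over the square root of F. At these depths 3 counts are 0.132 to 0.182 CPM, and counts carry no molecular identifiers, so limits cover counting error only. Replicates differed beyond sampling noise (chi-square per degree of freedom 84.1 to 185). On simulated data for d5FS against d0 with 14184 genes, 72.4% of 98 genes changed by a log2 of 2 were recovered. Of 98 genes changed by 4, 94.9% were recovered, and 10.4% of 183 calls were false. Far fewer genes changed there than were called in the real comparison, and libraries were drawn independently. These rates therefore need not hold for the real data.

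The genes and lists were chosen with earlier results of these data known, and so support nothing by themselves. Named were all 9 genes, their families, for each list in d5FS against d0 up to 2 called genes in each direction by size and the uncalled gene with the highest mean TPM, called genes where 5 or fewer, and the 3 genes with the most similar log2 CPM (prior count 2). The epiblast and pluripotency genes compared between d0 libraries, and Neurog2, Six3 and Hes5, were picked from the lists after values were seen. Sox1ot was not analysed here, and some genes are not reported here. Alternatives were DESeq2 1.42.0 size factors, its Wald test (same limits), its test of changes beyond a log2 of 1, counts left unfiltered, a block for replicate number, fits of only the 2 groups compared, fits without each library, and for levels TPM or CPM by library total. Positions are GENCODE M21 on mm10.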

Additional observations from a re-analysis of the deposited data

How the results depend on the processing

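In 24 fitted values (8 genes in 3 comparisons), 16 kept their sign under every alternative. No filter on low counts called 3, 5 and 5 of the neuroectoderm genes in d3F against d0, d5FS against d0 and d5FS against d3F, in place of 1, 3 and 0. Of all genes it called 1933, 4495 and 1423 in these comparisons, in place of 683, 3313 and 224. The DESeq2 Wald test called 2 and 3 neuroectoderm genes in d3F against d0 and d5FS against d3F, and 1486 and 1057 of all genes. The DESeq2 test of changes beyond a log2 of 1 called 1 neuroectoderm gene in d5FS against d0 (Tubb3), and 383 of all genes in d3F against d0 and 1006 in d5FS against d0. A fit of the 2 groups compared called 2 neuroectoderm genes in d3F against d0, and 430 of all genes in d3F against d0 and 529 in d5FS against d3F. The causes were not tested.

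Replicates share only a number, since the labels name no batch. Same-numbered samples deviated together, with correlations over genes of 0.314, 0.324 and 0.278, a hint from the data and not the design. With the replicate number as a block, 3, 4 and 2 neuroectoderm genes were called in d3F against d0, d5FS against d0 and d5FS against d3F, and 1320, 4296 and 918 of all genes. The calls gained were Zic2 (1.61, edgeR adjusted p = 0.0122) and Sox3 (2.65, edgeR adjusted p = 0.0323) in d3F against d0, Sox1 (-2.31, edgeR adjusted p = 0.0332) in d5FS against d0, and Zic2 (-2.11, edgeR adjusted p = 0.0091) and Pou3f1 (-3.13, edgeR adjusted p = 0.0104) in d5FS against d3F. Under the block Zic5 turned to -0.056 in d3F against d0 and Nes to 0.0079 in d5FS against d0.

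Without 1 library, 0 to 2, 1 to 3 and 0 to 0 neuroectoderm genes were called in the same 3 comparisons, and 97 to 977, 1047 to 3037 and 0 to 496 of all genes. Values without 1 library that crossed 0 were those of Pax6 (-1.88 to 0.67), Zic5 (-0.80 to 0.60), Pou3f1 (-2.32 to 0.88) and Nes (-0.082 to 3.39) in d3F against d0, Zic2 (-1.37 to 0.37) and Nes (-1.35 to 2.11) in d5FS against d0, and Sox1 (-1.56 to 0.71) and Pax6 (-1.67 to 0.89) in d5FS against d3F. The order of the 3 populations by mean level was the same for all 9 genes in CPM, in TPM and in CPM by library total. Depth limits Zic1, Pax6 and Sox1, which had 47 counts at most in a library.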

Other observations

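Across the 6 libraries, the genes whose log2 CPM was most like that of each neuroectoderm gene were found by Pearson's r, as a description with no test, since the libraries share populations and replicate differences. For Tubb3 they were Depdc7, Pipox and Grhl1 (r of 0.998, 0.995 and 0.994), and 873 of 10956 candidate genes had an r of at least 0.9. For Pou3f1 they were Ptprn, Eny2 and Dag1 (0.998, 0.996 and 0.995), with 420 such genes. For Zic2 they were Ppp4r4, Xrcc3 and Rhbdd2 (0.995, 0.992 and 0.982), with 111, and for Zic5 Lacc1, Ahi1 and Fam111a (0.994, 0.985 and 0.983), with 326. For Sox3 they were Pifo, Wdr54 and Syngr2 (0.988, 0.987 and 0.984), with 89, for Nes Abhd17c, Frem2 and Rom1 (0.993, 0.988 and 0.988), with 90, and for Sox1 Dlgap5, Twf2 and Kat7 (0.998, 0.993 and 0.992), with 376. Pax6 had the fewest, 10, led by Serp2, Glrx3 and Ndn (0.979, 0.925 and 0.919). No gene of the set was among the 3 most alike of another.

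Markers of feeder fibroblasts, which are also matrix genes of other cells, summed to 9.65 to 14.6 CPM in d0, 31.7 to 77.0 in d3F and 195.3 to 231.7 in d5FS, and 4 of 6 tested were called higher in d5FS against d0 (Col1a1, Col1a2, Col3a1 and Postn). Thy1 had 3.07 and 1.49 CPM in d0 and 1.02 and 0.459 in d5FS, Dcn had 16 counts or fewer and Lum 1 or 0 in each library. Whether this bears on Nes or Vim was not tested.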
